A study of Mus musculus with 9 samples.

Results

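The kidneys of hindlimb-unloaded mice given 4-phenylbutyric acid (4-PBA) were compared with those of ground control mice, to see how far treated, unloaded animals differed from animals that were neither unloaded nor treated. Of the 9 kidney libraries of the series the comparison uses 6: GC1, GC2 and GC3 from ground controls, and PBA1, PBA2 and PBA3 from treated unloaded mice. Of the 54532 genes in the deposited table, 10941 reached 1 FPKM (fragments per kilobase of gene, scaled to the library, the authors' unit) in at least 3 of these 6 libraries and are described here; 9938 of them are protein-coding. All mice were C57BL/6J males aged 4 months. Ground controls were left untreated, and the treated group was unloaded and received 4-PBA at 100 mg per kg per day by intraperitoneal injection. The groups therefore differ in unloading, injection and drug at once, and these cannot be told apart in this comparison. The unloaded mice given vehicle (HU1, HU2 and HU3) enter no test and are mentioned only where their values stand beside a result. The labels do not say which portion of the kidney was taken, nor that the 3 samples of a group came from separate animals, so p-values measure the spread between these samples.

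In hindlimb unloading a mouse is suspended so that its hind limbs bear no weight, which models disuse and weightlessness. 4-PBA is a small aromatic fatty acid that acts as a chemical chaperone in the endoplasmic reticulum (ER) and also inhibits histone deacetylases. When misfolded proteins accumulate in the ER, the sensors PERK, IRE1 and ATF6 start the unfolded protein response, which raises chaperones such as BiP, and PERK also feeds the integrated stress response through ATF4 and CHOP. The kidney is made of filtering glomeruli, the proximal tubule that reabsorbs most of the filtrate, the thick ascending limb, distal tubule and collecting duct that adjust salt and water, and a renal pelvis lined by urothelium, a stratified epithelium sealed by uroplakin proteins.

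The libraries carried the transcripts of all these nephron segments. Slc34a1, the phosphate transporter of the proximal tubule, had 674, 497 and 694 FPKM in the ground controls (in the order GC1, GC2, GC3, kept below) and 565, 619 and 146 FPKM in the treated libraries (PBA1, PBA2, PBA3). Aqp2, the water channel of the collecting duct, had between 91.1 and 236 FPKM in the 6 libraries. Nphs1, encoding the podocyte protein nephrin, had 1.43, 1.94 and 1.95 FPKM in ground controls and 2.26, 1.05 and 0.170 FPKM in treated mice. PBA3 thus was lowest in Slc34a1 and Nphs1. It also stood apart within this comparison: 67.1% of its gene reads came from the mitochondrial genome, against 13.7% to 18.9% in PBA1, PBA2, GC1 and GC2, and 49.7% in GC3. Recovered reads in genes ranged from 8766613 (PBA3) to 15141784 (GC2), and outside the mitochondrial genome PBA3 held 2887586 reads against 5780141 to 12893802 in the others. Pseudogenes took 4.83% of the reads outside the mitochondrial genome in PBA3 and 0.955% to 1.76% in the others. Results are therefore given with and without PBA3. The vehicle-treated unloaded libraries were like PBA3 in these measures. In HU1, HU2 and HU3 the mitochondrial share was 68.7%, 79.3% and 63.7%, and the pseudogene share 5.84%, 7.54% and 3.73%. They held 2550139, 1568888 and 3037972 reads outside the mitochondrial genome.

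No gene passed. At a limma adjusted p under 0.05, 0 of 10941 genes (0.0%) differed between the groups, and the smallest limma adjusted p was 0.946. At an unadjusted limma p under 0.05 there were 244 genes (2.23%), 131 higher in treated mice (1.2%) and 113 lower (1.03%). limma-voom on the recovered reads also found 0 genes, with 168 at an unadjusted p under 0.05. The 3 treated libraries all lay above or all below the 3 ground controls in 884 genes (8.08%), 464 higher (4.24%) and 420 lower (3.84%). Without PBA3, limma again passed 0 genes, with 257 at an unadjusted p under 0.05; 998 genes (9.12%) lay above all ground controls in the remaining treated libraries and 817 (7.47%) below. Below, such genes are said to have groups that do not overlap, and since none passed, higher and lower describe values and not calls. Groups of fewer libraries lie apart more often by ordering alone, so shares without PBA3 cannot be set against those with it.

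How large a difference could have been missed varied by gene. The 95% interval of limma (not adjusted for the number of genes) lay within a log2 difference of 1 in either direction for 6262 genes (57.2%), and without PBA3 for 8396 (76.7%). Of the 3016 genes with a mean of at least 10 FPKM in the higher group, 46.3% had such an interval, and 71.7% without PBA3. The other genes had intervals that reached beyond 1 in at least 1 direction. The fitted difference itself was beyond 1 for 246 genes, 107 higher and 139 lower, and without PBA3 for 135 genes, 55 higher and 80 lower. The median over all genes was -0.03, and 0.02 without PBA3. All log2 differences are on the log2(FPKM + 1) scale, treated minus ground control, which understates the difference of low genes.

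The treated libraries did not lie equally far from ground controls. PBA2 differed from the ground control mean by more than 1 on the log2 scale in 1.31% of genes and PBA1 in 3.78%. Single ground controls differed by that much from the mean of the other ground controls in 1.92% (GC1), 3.17% (GC2) and 7.22% (GC3) of genes. PBA3 differed by that much in 24.8% of genes, 9.41% above and 15.4% below. It was the highest of the 6 libraries in 28.3% of genes and the lowest in 38.1%. By this measure PBA1 lay within the range of single ground controls and PBA2 below it, where a ground control was set against a mean of 2 libraries and a treated library against a mean of 3.

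**Figure D1:**
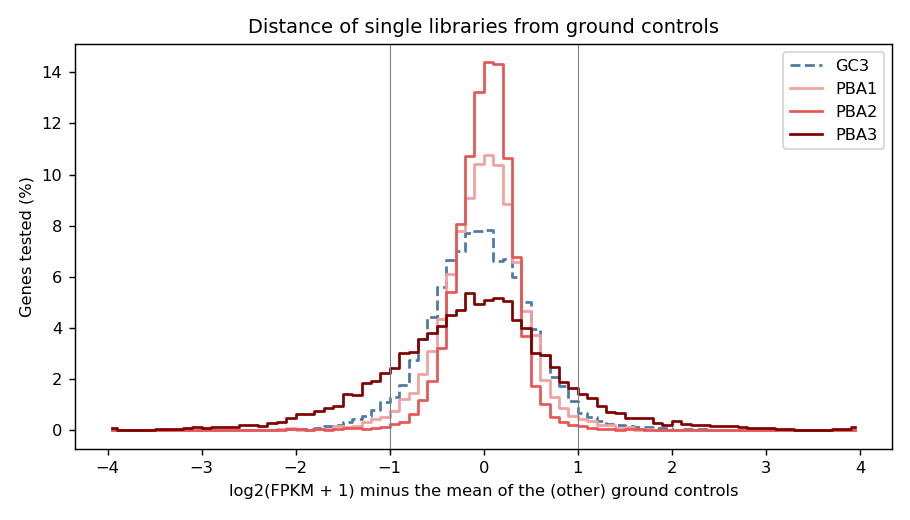
Share of the 10941 genes tested (vertical axis, percent) by their log2(FPKM + 1) minus the mean of the ground controls (horizontal axis) in PBA1, PBA2, PBA3 and, against the other ground controls, GC3; values beyond the axis are placed in the outermost bins and grey lines mark a difference of 1. PBA3 is the widest, with 24.8% of genes beyond 1, against 3.78% in PBA1, 1.31% in PBA2 and 7.22% in GC3.

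Urothelium genes had the highest values relative to ground controls. The uroplakins form the plaques of the urothelial surface. Upk3a (ENSMUSG00000022435; mm10 chromosome 15, 85017141 to 85022547, plus strand) had 0.188, 3.82 and 0.251 FPKM in ground controls and 14.8, 6.02 and 33.3 FPKM in treated mice. All treated libraries were above all ground controls, with GC2 nearest to PBA2. The means were 1.42 ± 2.08 and 18.0 ± 13.9 FPKM (SD, n = 3 each), and the log2 difference was 3.02 (95% interval 1.35 to 4.69; limma adjusted p = 0.946), 2.45 without PBA3 and 3.68 without GC2. These values rest on 107 reads in ground controls and 782 in treated mice.

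Psca (ENSMUSG00000022598; chromosome 15, 74714839 to 74717069, plus strand), which encodes a surface antigen of urothelium and prostate, had 1.31, 7.38 and 0.956 FPKM in ground controls and 37.6, 11.3 and 95.1 FPKM in treated mice. Upk2 (ENSMUSG00000041523; chromosome 9, 44452715 to 44454976, minus strand) had 0.237, 2.12 and 0 FPKM against 13.5, 2.98 and 19.7 FPKM, with a log2 difference of 2.76 (95% interval 1.18 to 4.34). Upk1b had 0.344, 2.84 and 0 FPKM against 9.55, 3.51 and 7.45 FPKM. In each of these genes GC2 was the highest ground control, and for Upk1b and Upk2 PBA2, the lowest treated library, was close to it. Upk1a overlapped, with 0.470, 2.82 and 1.16 FPKM against 11.0, 6.41 and 1.02 FPKM.

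Genes of the other urothelial layers were also higher. Krt5, a keratin of basal cells, had 0.0702, 1.39 and 0 FPKM in ground controls and 2.24, 1.41 and 3.87 FPKM in treated mice. Sprr1a, encoding a precursor of the cornified envelope, had 1.02, 19.9 and 9.52 FPKM against 64.6, 21.6 and 46.2 FPKM. Krt19 had a log2 difference of 1.84 and the transcription factor gene Foxq1 of 1.51, both with groups that do not overlap. Krt7 (log2 difference 0.16), a keratin that collecting ducts also make, and Sfn (0.19) overlapped.

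Of 16 urothelium genes listed, 11 were tested, and all 11 had a log2 difference above 0. In 8 of the 11 the groups did not overlap with treated mice higher (4.24% of all genes), and 8 had an unadjusted limma p under 0.05 (1.2% of all genes in that direction), with 0 passing after adjustment. Of the genes without overlap, Upk3a, Upk2, Upk1b and Krt5 reached 1 FPKM in GC2 alone among ground controls. They were tested only because of their level in treated libraries, so their part in these counts and in the median of the list is a description. The median of the 11 was 1.84, against -0.03 for all genes, and 2.00 without PBA3. The other 5 (Krt15, Krt20, Ivl, Trp63 and Upk3b) were below the level needed for testing; Krt15 had 4.58 FPKM in PBA1 and Krt20 5.08 FPKM in PBA3. The summed level of all 16 genes was 18.9, 66.2 and 30.9 FPKM in ground controls and 194, 78.6 and 260 FPKM in treated mice. PBA2 exceeded GC2 by little, while PBA1 and PBA3 were well above every ground control. In HU1, HU2 and HU3 the sum was 92.1, 93.5 and 32.9 FPKM. More cells of a type and more RNA per cell cannot be told apart in these bulk samples, and the part that the tissue portion played was not tested.

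**Figure D2:**
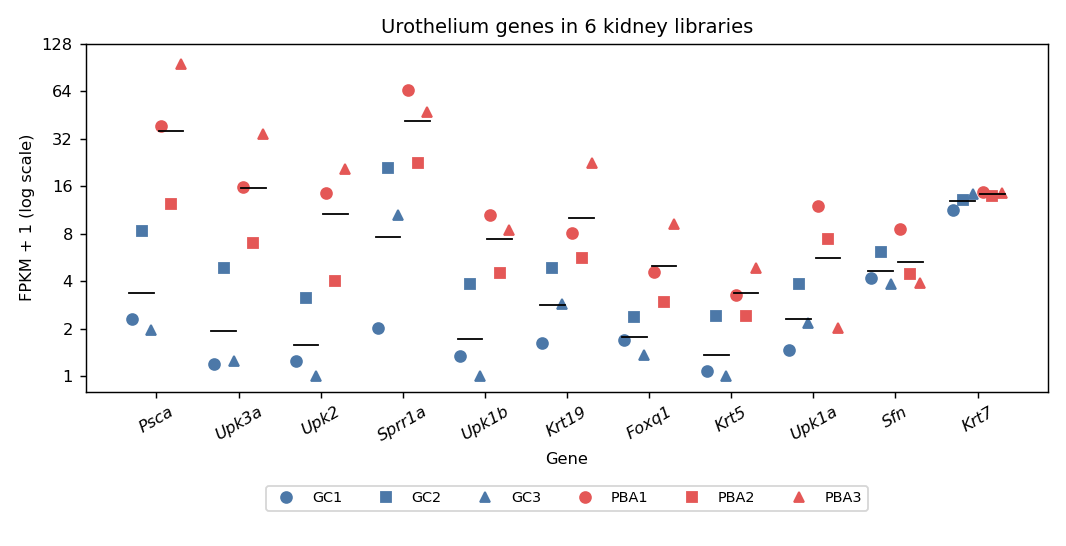
FPKM + 1 (vertical axis, log scale) of the 11 tested urothelium genes (horizontal axis) in each of the 6 libraries; each point is 1 library, blue for ground controls and red for treated mice, and short black lines are group means on the log scale. The treated points lie above all ground control points in 8 genes, from Psca and Upk3a to Krt5, with GC2 the nearest ground control in Psca, Upk3a, Upk2 and Upk1b.

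Further genes among the 12 higher protein-coding genes with the smallest p belong to epithelia. Gsdmc3 and Gsdmc2 are neighbours on chromosome 15 and encode gasdermins, proteins that can form membrane pores; as close paralogs their reads may be split between them. Gsdmc3 had 0.0221, 0.233 and 0 FPKM in ground controls and 1.67, 3.24 and 6.20 FPKM in treated mice, on 14 and 360 reads. Gsdmc2 had 0.488, 1.17 and 0.789 FPKM against 2.92, 2.92 and 9.42 FPKM. The lowest treated value was above the highest ground control in each. Gsdmc3 reached 1 FPKM in the treated libraries alone and so could enter only as a higher gene; its log2 difference of 2.00 is a description. Gsdmc2 had a log2 difference of 1.60 (95% interval 0.64 to 2.56). Cbr2, a carbonyl reductase, had a log2 difference of 1.17. Krt18, a keratin of simple epithelia, is not among the 12 and was added after its values were seen. It had 10.4, 17.7 and 13.3 FPKM against 31.2, 20.6 and 59.3 FPKM.

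Some genes of the renal medulla were higher, and others overlapped. Akr1b3 (ENSMUSG00000001642; chromosome 6, 34302434 to 34317478, minus strand) encodes aldose reductase, which makes the osmolyte sorbitol in the inner medulla. It had 2.45, 3.75 and 2.02 FPKM in ground controls and 8.78, 8.12 and 17.5 FPKM in treated mice, on 1339 and 4313 reads. Every treated library had more than any ground control. The means were 2.74 ± 0.905 and 11.5 ± 5.23 FPKM (SD, n = 3 each), and the log2 difference was 1.69 (95% interval 0.90 to 2.47; limma adjusted p = 0.946), and 1.36 without PBA3. In HU1, HU2 and HU3 it had 28.1, 6.71 and 3.41 FPKM. Slc14a2, the urea transporter of the inner medullary collecting duct, had 0.835, 4.79 and 0.885 FPKM against 16.9, 1.61 and 7.41 FPKM, so that PBA2 fell among the ground controls. Of 8 osmotic response genes listed after Akr1b3 was seen, 7 were tested and the median was 0.08, with 0.46 without PBA3.

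Aqp2 had 91.1, 105 and 98.7 FPKM in ground controls and 236, 135 and 133 FPKM in treated mice, with groups that do not overlap. Its log2 difference was 0.72 (95% interval -0.06 to 1.50). Aqp3 on the basolateral side of the same cells overlapped, with 13.5, 17.9 and 12.6 FPKM against 40.2, 16.8 and 10.9 FPKM. Aqp4 had a log2 difference of 1.13, and its groups overlapped too. The sodium channel subunit Scnn1b (log2 difference -0.77) and the cortisol-inactivating enzyme Hsd11b2 (-0.64) of these principal cells were below 0. Hsd11b2 had 3632, 2502 and 215 reads in PBA1, PBA2 and PBA3, so its value leaned on PBA3, the library with the fewest reads. Of 10 principal cell genes tested 5 were above 0 and 5 below, with a median of 0.11. Without PBA3 6 were above 0 and the median was 0.05.

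Immune cell genes were higher in part. MHC class II molecules present peptides on antigen-presenting cells. H2-DMb2, which helps to load them, had 0.210, 0.391 and 0 FPKM in ground controls and 1.71, 1.05 and 2.16 FPKM in treated mice; it reached 1 FPKM in the treated libraries alone and so could enter only as a higher gene. H2-Eb1 had 35.6, 46.9 and 17.7 FPKM against 94.9, 44.2 and 71.5 FPKM, and the invariant chain Cd74 had 86.8, 81.6 and 58.0 FPKM against 194, 102 and 83.6 FPKM. PBA1 was the highest of the 6 libraries for H2-Eb1 and Cd74, and PBA2 was within the ground controls for H2-Eb1 and above them for Cd74. Of 11 class II genes 7 were tested and 6 were above 0; the groups did not overlap in 1 (4.24% of all genes), which was H2-DMb2 itself, and in 5 without PBA3 (9.12% of all genes), H2-DMb2 included. The median was 0.66, with 0.91 without PBA3, 0.39 without PBA1 and 0.41 without GC3, so it moved with single libraries of either group.

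C1qa, a complement subunit made by macrophages, had 9.64, 12.4 and 9.22 FPKM in ground controls and 21.1, 14.8 and 28.2 FPKM in treated mice, with a log2 difference of 0.94 (95% interval 0.25 to 1.62). Of 12 macrophage genes tested of 16, 8 were above 0 and 3 had groups that do not overlap, all higher (4.24% of all genes). Their median was 0.38, with 0.14 without PBA3 and 0.18 without GC1. Nkg7, a granule protein of cytotoxic lymphocytes, had 0.450, 0.274 and 0 FPKM against 1.58, 1.19 and 3.16 FPKM, on 14 and 79 reads; it too was tested only because of its level in treated libraries. Only 4 of 20 T and natural killer cell genes were tested. The T cell receptor component Cd3e was at most 0.137 FPKM in all 6 libraries and listed at 0 in GC3 and PBA3. PBA3 alone had many antibody transcripts: Igkc, the kappa light chain, had 5.34 to 12.0 FPKM in the other 5 libraries and 223 FPKM in PBA3, and Ighm had 3.43 to 5.56 FPKM and 52.1 FPKM. Mzb1, which aids antibody assembly in the ER, went the other way, with 1.53, 1.25 and 2.72 FPKM in ground controls and 0.664, 1.01 and 0 FPKM in treated mice.

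The remaining genes with the smallest p on the higher side are known mainly from other tissues. Fam171a2, a membrane protein gene, varied little, with 1.81, 1.54 and 1.67 FPKM in ground controls and 4.01, 4.08 and 4.11 FPKM in treated mice. Uchl1, a deubiquitinating enzyme abundant in neurons, had 2.99, 2.33 and 2.18 FPKM against 4.81, 5.24 and 5.31 FPKM. For both, the treated libraries lay close together, PBA3 included, and the log2 differences were 0.92 (95% interval 0.49 to 1.36) and 0.81 (0.35 to 1.28). Npy, encoding neuropeptide Y, had 2.63, 1.84 and 0 FPKM against 6.65, 5.32 and 11.3 FPKM, and 0, 28.4 and 34.6 FPKM in HU1, HU2 and HU3.

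The 12 protein-coding genes with the smallest p on the lower side had smaller differences, from -1.72 to -0.69. Ccl21a (ENSMUSG00000095320, on a scaffold outside the assembled chromosomes) encodes a chemokine that draws T cells and dendritic cells. It had 2.43, 5.09 and 8.18 FPKM in ground controls and 1.49, 0.542 and 0.399 FPKM in treated mice. It has near-identical copies, so its value is uncertain. Fas (chromosome 19, 34290659 to 34327770, plus strand), the death receptor, had 3.77, 4.59 and 5.83 FPKM against 2.36, 2.15 and 2.32 FPKM, with a log2 difference of -0.79 (95% interval -1.29 to -0.29), and -0.80 without PBA3. The treated libraries lay close together and below every ground control. Hdc, the histidine decarboxylase that makes histamine, had 2.63, 1.16 and 2.56 FPKM against 0.577, 0.539 and 0.728 FPKM. It reached 1 FPKM in the ground controls alone and so could enter only as a lower gene.

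Kcnt1, a sodium-activated potassium channel gene, had 2.99, 2.01 and 3.48 FPKM in ground controls and 0.847, 1.37 and 0.979 FPKM in treated mice. Slc6a15, a neutral amino acid transporter gene, had 4.95, 2.99 and 7.08 FPKM against 1.62, 2.68 and 1.24 FPKM. Tspan1, a tetraspanin gene of epithelia, had 7.99, 8.00 and 6.24 FPKM against 4.59, 4.36 and 2.48 FPKM. The groups did not overlap in these or in the remaining genes of the 12, which were Tox3, Spice1, Pcf11, N4bp2l1, Hjurp and St6galnac2 (ENSMUSG00000110170, which overlaps a second gene model of that name). Vegfa, a growth factor that maintains glomerular and tubular capillaries, had 30.2, 24.2 and 45.1 FPKM in ground controls and 17.7, 21.1 and 9.69 FPKM in treated mice, a log2 difference of -1.01 (95% interval -1.87 to -0.15). It was the only one of 13 hypoxia genes tested whose groups did not overlap in that direction (3.84% of all genes), and the median of the list was -0.04.

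The study concerned ER stress, so the sensors, chaperones and targets of the unfolded protein response were examined by name. Chaperone genes of the ER share a promoter element, the ER stress response element (ERSE), read by ATF6 and XBP1 together with the CCAAT-binding factor NF-Y. The letters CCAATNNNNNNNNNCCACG were searched on both strands of the RefSeq promoter windows (GRCm38.p6; 250 bases before to 50 after each gene start). They were found in 39 of 32851 windows (0.119%), and in 13 of the 8085 tested genes that have a window (0.161%). The stretches below show the element in 4 of these genes, each 5′ to 3′ on the strand of its gene with the matching letters in capitals; a match in capitals that begins with CGTGG is on the opposite strand.
Hspa5, chr2:34772015-34772053, plus strand: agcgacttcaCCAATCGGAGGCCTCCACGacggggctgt
Calr, chr8:84847065-84847103, minus strand: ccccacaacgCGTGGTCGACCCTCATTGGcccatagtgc
Creld2, chr15:88819510-88819548, plus strand: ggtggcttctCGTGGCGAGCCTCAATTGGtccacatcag
Hsp90b1, chr10:86705523-86705666, minus strand: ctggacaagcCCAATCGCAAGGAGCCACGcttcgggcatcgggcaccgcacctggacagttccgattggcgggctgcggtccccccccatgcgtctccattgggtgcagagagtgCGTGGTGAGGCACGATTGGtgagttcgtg
Hspa5 encodes BiP, Hsp90b1 the chaperone GRP94, Calr calreticulin, and Creld2 an ER protein that is raised with them. The stretch of Hsp90b1 holds the element in 2 places, once in each orientation.

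Since 0 of the 10941 genes passed the test, no gene with this element in its window did. Hspa5 (ENSMUSG00000026864; chromosome 2, 34771970 to 34777547, plus strand) had 39.8, 50.2 and 28.4 FPKM in ground controls and 41.1, 38.0 and 20.5 FPKM in treated mice. PBA1 and PBA2 were within the range of the ground controls and PBA3 below it. The means were 39.5 ± 10.9 and 33.2 ± 11.1 FPKM (SD, n = 3 each), and the log2 difference was -0.27 (95% interval -1.11 to 0.57; limma adjusted p = 0.946), and 0.04 without PBA3. Calr had 98.1, 151 and 92.6 FPKM against 138, 104 and 56.3 FPKM. Hsp90b1 had 31.3, 44.8 and 38.5 FPKM against 39.8, 32.5 and 35.0 FPKM, and Creld2 had 8.28, 9.78 and 5.28 FPKM against 12.2, 8.27 and 6.93 FPKM. The groups overlapped in all 4. Over the 13 tested genes with the element (also Canx, Pdia6, Dnajc3, Syvn1, Alg12, Acacb, Hnrnpa3, Acnat2 and Pan2) 4 were above 0, 0 had an unadjusted limma p under 0.05 and 0 had groups that do not overlap (8.08% of all genes). Their median was -0.10, against -0.03 for all tested genes with a window, and 0.04 against 0.02 without PBA3. The matches of Alg12 and Creld2 are the same stretch read on opposite strands, and both genes are among those above 0.

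The stress sensors were low in level. Atf6 had 2.04, 2.13 and 1.02 FPKM in ground controls and 2.95, 2.47 and 2.15 FPKM in treated mice. Eif2ak3, encoding PERK, had 1.50, 1.60 and 1.29 FPKM against 2.73, 1.62 and 2.32 FPKM. Ern1, encoding IRE1, had 0.811, 0.746 and 0.749 FPKM against 1.23, 0.966 and 1.22 FPKM and was below the level needed for testing. In all 3 the treated libraries were above the ground controls, by little for PBA2 in Eif2ak3. The log2 differences were 0.39 for Atf6 (95% interval -0.19 to 0.97) and 0.37 for Eif2ak3 (-0.14 to 0.89). Xbp1, whose RNA IRE1 splices, had 23.9, 25.3 and 20.1 FPKM against 24.4, 25.2 and 11.6 FPKM, with PBA1 and PBA2 at the ground control level. Gene totals do not show splicing.

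Of 28 unfolded protein response genes 26 were tested, 9 of them above 0 and 17 below, with a median of -0.08. The groups did not overlap in 2, Atf6 and Eif2ak3, both higher (4.24% of all genes). Without PBA3 24 of the 26 were above 0 and the median was 0.25; without both PBA3 and GC3, the libraries with the highest mitochondrial shares, it was 0.08. The sign of this list thus depended on which libraries were used. The median of GC3 against the other ground controls was -0.50 and that of PBA3 against ground controls -0.48, while PBA1 had 0.31 and PBA2 0.10.

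The integrated stress response genes gave no common direction. Atf4, its transcription factor, had a log2 difference of -0.16 (95% interval -0.71 to 0.39). Ddit3 (ENSMUSG00000025408), encoding CHOP, had 5.76, 3.80 and 5.55 FPKM in ground controls and 3.81, 6.44 and 12.5 FPKM in treated mice, a log2 difference of 0.39 (95% interval -0.51 to 1.30) that was 0.00 without PBA3. Nupr1, a small stress-induced chromatin protein gene, had 1.98, 5.76 and 4.94 FPKM against 6.93, 7.54 and 43.9 FPKM. PBA3 was the highest library for Ddit3 and Nupr1. Gdf15, a stress cytokine, was lower in every treated library, with PBA3 lowest, at 3.30, 3.31 and 3.21 FPKM against 2.49, 2.45 and 1.47 FPKM. Of 15 genes tested of 20, 10 were above 0, and the groups did not overlap in 2 higher (Nupr1 and Cebpb; 4.24% of all genes) and 1 lower (Gdf15; 3.84%), with a median of 0.25. Fgf21 was listed at 0 in all 6 libraries.

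Among 16 heat shock protein genes, which serve the cytosol and mitochondria rather than the ER, 1 had groups that do not overlap, with treated mice higher, which is near the share in all genes (4.24%). Hspa1b, the inducible HSP70, had 2.31, 2.26 and 1.30 FPKM in ground controls and 6.39, 5.01 and 24.0 FPKM in treated mice. Its log2 difference was 1.83 (95% interval 0.60 to 3.05), and 1.19 without PBA3. Its near-identical neighbour Hspa1a had 2.20, 1.58 and 0.308 FPKM against 2.56, 2.00 and 6.38 FPKM, and reads could be split between them. Hsp90aa1 had a log2 difference of -0.47, and the median of the list was 0.10 with and without PBA3.

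**Figure D3:**
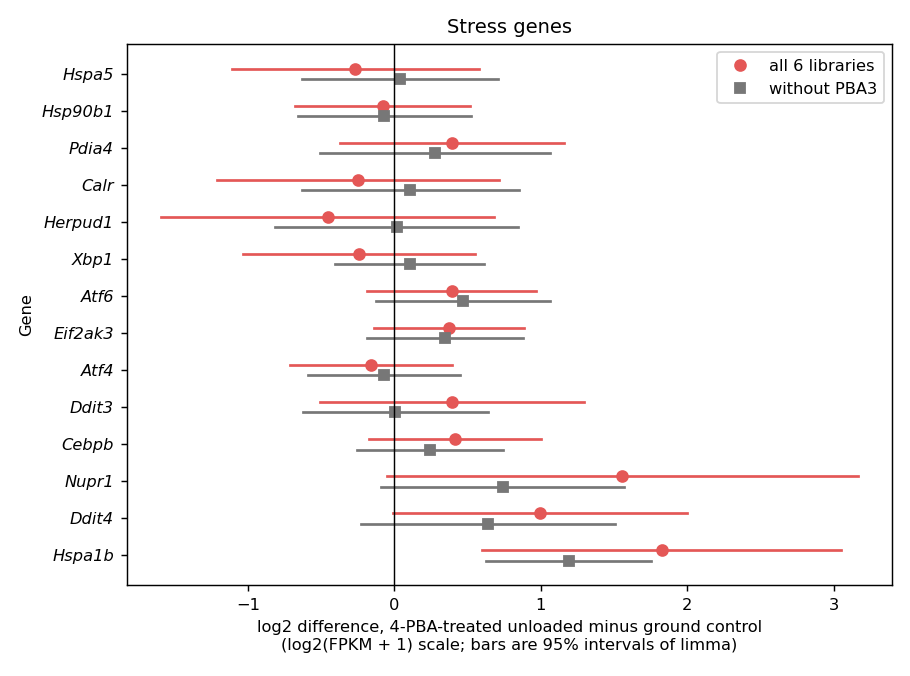
log2 difference on the log2(FPKM + 1) scale, treated minus ground control (horizontal axis), of tested stress genes (vertical axis); red circles use all 6 libraries, grey squares leave out PBA3, and bars are 95% intervals of limma. The intervals include 0 for every gene but Hspa1b (0.60 to 3.05 with all 6 libraries), and Hspa5 sits at -0.27 and, without PBA3, at 0.04.

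Genes tied to 4-PBA itself were looked at next. Phenylbutyrate is oxidised and conjugated in kidney and liver by acyl-CoA synthetases and amino acid acyltransferases. Acsm1, a medium-chain acyl-CoA synthetase gene, had 39.8, 42.3 and 37.4 FPKM in ground controls and 41.8, 27.5 and 10.2 FPKM in treated mice. Glyat, the glycine acyltransferase, had 83.7, 71.0 and 71.5 FPKM against 53.3, 74.2 and 33.9 FPKM. PBA3 was lowest in both, and the groups overlapped. Of 11 such genes tested of 12, 10 were below 0 with a median of -0.24, but the median was -0.10 without PBA3, and 0 had groups that do not overlap (8.08% of all genes). A list of histone deacetylases had a median of -0.06 over 12 genes tested of 16. It holds zinc-dependent enzymes, the class that 4-PBA inhibits, as well as NAD-dependent sirtuins and genes such as Cdkn1a and H1f0 that respond to such inhibitors. Hdac3 (log2 difference -0.29) and the sirtuin gene Sirt1 (-0.44) were the 2 lower genes with groups that do not overlap (3.84% of all genes).

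Fatty acid oxidation genes under the receptor PPAR alpha were mostly below 0. Cyp4a10, a fatty acid hydroxylase, had 159, 196 and 78.2 FPKM in ground controls and 71.6, 80.4 and 24.3 FPKM in treated mice. Only PBA2 reached into the ground control range, just above GC3. Its log2 difference was -1.36 (95% interval -2.65 to -0.06), and -0.82 without PBA3; it has close paralogs. Of 19 genes tested of 21, 17 were below 0 with a median of -0.28, and -0.13 without PBA3; the groups did not overlap in 0, and in 3 on the lower side without PBA3 (7.47% of all genes).

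Several lists with large medians took them from PBA3. All 28 proximal tubule genes had a log2 difference below 0, with a median of -0.64, yet it was -0.04 without PBA3, with 12 of 28 above 0. Against ground controls the median of these genes was -0.02 in PBA1, 0.05 in PBA2 and -1.80 in PBA3. Slc5a2, the glucose transporter SGLT2, for example had 30.5, 25.5 and 37.3 FPKM in ground controls and 30.8, 20.3 and 3.93 FPKM in treated mice. The androgen-regulated transcript Kap had 51020, 47235 and 58419 FPKM against 29165, 55526 and 7971 FPKM. Cytochrome P450 genes gave -0.73 with PBA3 and 0.01 without it, and nuclear genes of oxidative phosphorylation -0.30 and -0.02. In the matrix list, all 21 genes tested of 24 were above 0 with a median of 0.74, and without PBA3 the median was -0.19 with 5 of 21 above 0. Against ground controls, HU1, HU2 and HU3 lay on the same side as PBA3 in these lists. Their medians were -2.98, -1.86 and -2.02 for proximal tubule and -2.97, -2.51 and -2.44 for cytochrome P450 genes. They were -1.03, -0.68 and -0.55 for oxidative phosphorylation and 1.67, 3.08 and 2.83 for matrix genes.

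PBA3 had high levels of matrix, complement and smooth muscle genes. Bgn, encoding the proteoglycan biglycan, had 22.5, 25.7 and 32.4 FPKM in ground controls, 30.3 and 17.4 FPKM in PBA1 and PBA2, and 191 FPKM in PBA3. Ctgf, the matricellular growth factor of connective tissue, had 7.18 to 14.6 FPKM in the other 5 libraries and 137 FPKM in PBA3. Only PBA3 was high in both. It was in the range of the vehicle-treated unloaded libraries for these genes, which had 158, 342 and 227 FPKM of Bgn and 97.3, 199 and 105 FPKM of Ctgf. In other lists PBA3 lay above them. The median of complement genes against ground controls was 2.03 in PBA3, and 0.63, 0.64 and -0.37 in HU1, HU2 and HU3. For smooth muscle and pericyte genes it was 1.30 in PBA3, and 0.23, 0.37 and 0.02. The genes furthest below in PBA3 relative to PBA1 and PBA2 were mostly detoxifying and transport genes, such as Ugt2b38 (159 to 257 FPKM in the other 5 libraries, 10.6 FPKM in PBA3), Cyp4b1 (238 to 541 FPKM, and 37.1 FPKM), Slc51b, Slc22a28, Cyp4a12a and Ugt2b37. Some of these have close paralogs. PBA3 also had the highest mitochondrial share of the 6 libraries. With that share as a covariate in the fit, the median of the proximal tubule list was -0.48, against -0.64 without the covariate. It was -0.55 against -0.73 for cytochrome P450 and 0.53 against 0.74 for matrix genes. What lies behind the share of PBA3 was not tested.

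**Figure D4:**
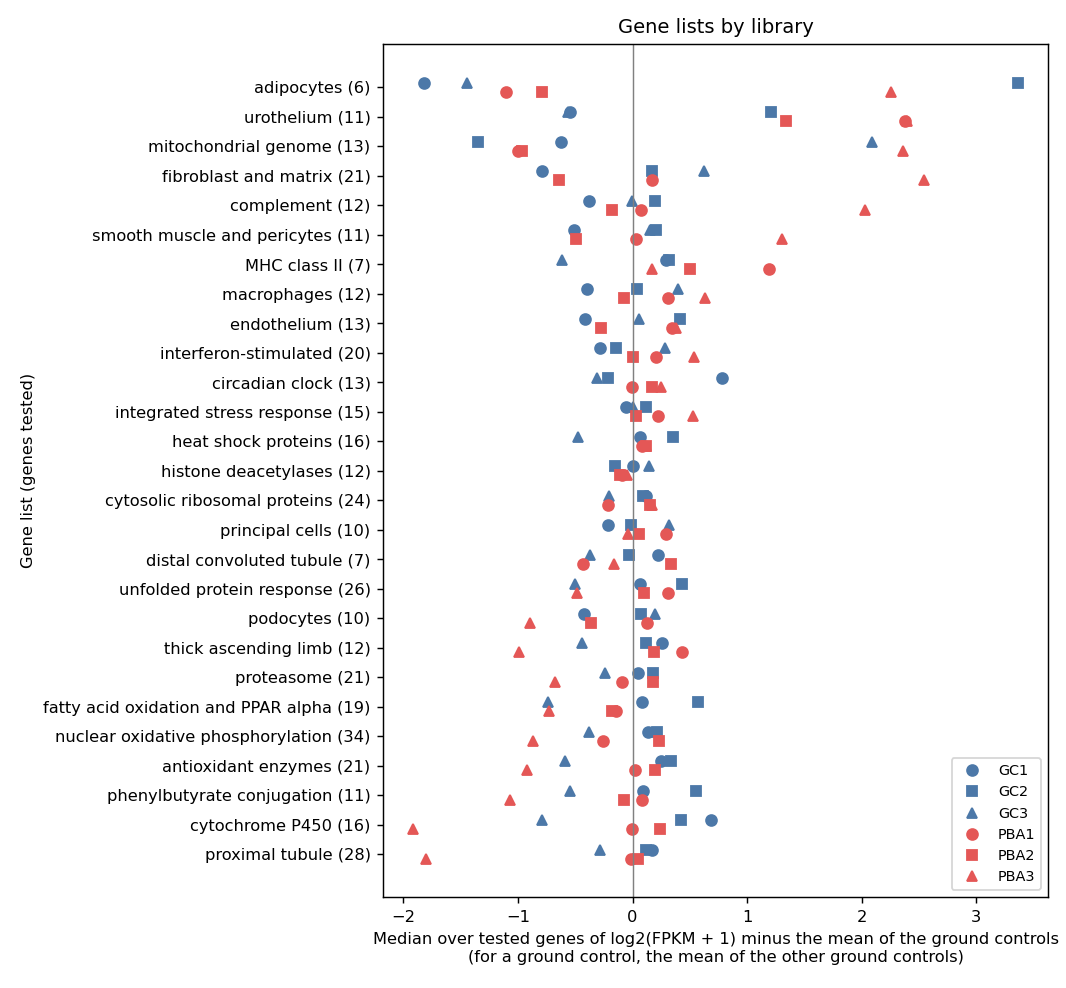
Median over the tested genes of each list (vertical axis, number tested in brackets) of log2(FPKM + 1) minus the mean of the ground controls, or of the other ground controls for a ground control (horizontal axis); each point is 1 library, blue for ground controls and red for treated mice. PBA3 lies far below in cytochrome P450 (-1.91) and proximal tubule (-1.80) and far above in fibroblast and matrix (2.55), GC3 and PBA3 are both high in the mitochondrial genome (2.09 and 2.36), and GC2 and PBA3 are both high in adipocytes (3.37 and 2.25).

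Other nephron segments had medians nearer to 0. Thick ascending limb genes had a median of -0.18, and 0.22 without PBA3. Umod, the uromodulin gene of that segment, had 254, 220 and 85.4 FPKM in ground controls and 500, 227 and 32.5 FPKM in treated mice. Its values thus spanned a wider range among treated mice than among ground controls. Intercalated cells of the collecting duct, which move acid and base, had 11 of 12 genes below 0 and a median of -0.39, and -0.35 without PBA3. The proton pump subunit gene Atp6v0d2 had 8.08, 12.1 and 14.9 FPKM against 7.46, 6.87 and 7.26 FPKM, with groups that do not overlap, and the anion exchanger gene Slc26a4 had 17.4, 20.4 and 27.1 FPKM against 12.3, 17.8 and 8.98 FPKM. This list rested less on PBA3 than on GC3, its highest ground control: without GC3 the median was -0.21.

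Podocyte genes had a median of -0.28, and -0.13 without PBA3. Clic3, a chloride channel gene of these cells, had groups that do not overlap, with 7.52, 9.57 and 12.1 FPKM in ground controls and 6.53, 6.63 and 2.85 FPKM in treated mice. Endothelial genes had a median of 0.34, and 0.00 without PBA3. The 13 protein-coding genes of the mitochondrial genome had a median of 0.12, and -0.99 without PBA3, since GC3 was the other library with high values. The metallothionein gene Mt2 had 6.99, 4.69 and 4.35 FPKM in ground controls and 7.29, 10.5 and 38.2 FPKM in treated mice, while Mt1 overlapped, with a log2 difference of 0.09.

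Adipose transcripts set GC2 and PBA3 apart from the other libraries, whatever their group. Ucp1, the uncoupling protein of brown fat, had 1.19, 15.7 and 0 FPKM in ground controls and 0, 1.07 and 37.5 FPKM in treated mice. Cfd, encoding the adipokine adipsin, had 2.23, 273 and 9.31 FPKM against 8.04, 0.804 and 304 FPKM. Cox8b, a respiratory subunit gene of muscle and brown fat, had 0.857, 52.0 and 2.54 FPKM against 0.111, 0.242 and 106 FPKM. The summed level of 12 adipocyte genes was 687 FPKM in GC2 and 593 FPKM in PBA3, and 110 to 142 FPKM in the other 4. The median log2 difference of the 6 that were tested was -0.13 with all libraries, -1.03 without PBA3 and 1.16 without GC2, so 1 library in either group decided its sign. GC2 was also the ground control with the most urothelium RNA, and without it the median of the urothelium genes was 2.23.

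**Figure D5:**
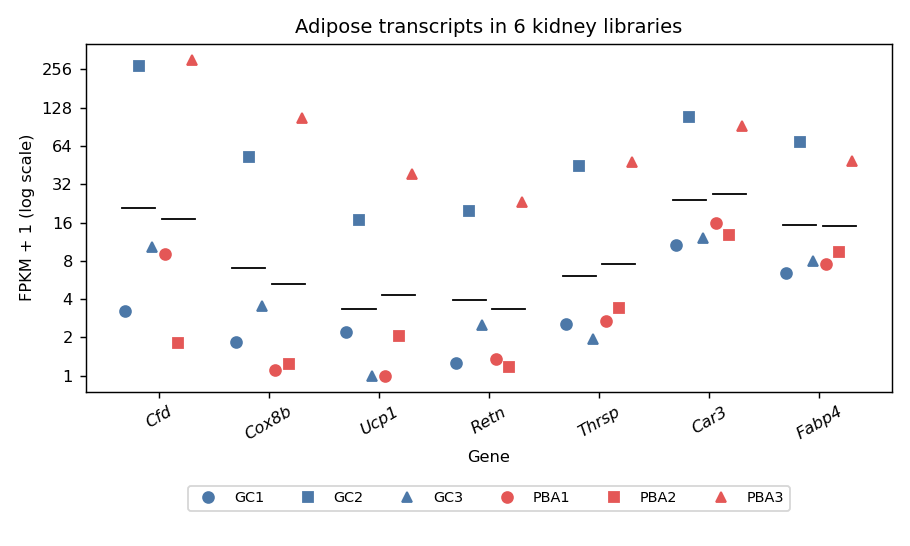
FPKM + 1 (vertical axis, log scale) of 7 adipose genes (horizontal axis) in each of the 6 libraries; each point is 1 library, blue for ground controls and red for treated mice, and short black lines are group means on the log scale. GC2 and PBA3 are the 2 highest libraries in every gene shown, and the group means lie close together.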

How the data were processed

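Kidney messenger RNA was selected with oligo-dT beads and sequenced from both ends as directional (dUTP) libraries, per the labels' protocols. CASAVA, cutadapt, HISAT2 and the mm10 genome are named in the submitters' processing notes, without versions or a counter. The authors deposited 1 table of FPKM for 54532 genes; coordinates of 98.1% of genes equal those of GENCODE mouse release 21. Each FPKM times gene length and a library constant gave whole reads (100% of values within 0.01), which provided depth and, for limma-voom, counts recovered from the deposited FPKM. A count of 3 reads was taken as the floor; read numbers cover counting error only. No pair of replicates agreed within sampling noise.

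Genes with at least 1 FPKM in at least 3 of the 6 libraries were tested with limma 3.58.1 (R 4.3.3; empirical Bayes with a trend, 2 groups, no block) on log2(FPKM + 1), with Benjamini-Hochberg adjusted p under 0.05. The code was tested on simulated data. The labels do not say that the replicate numbers pair samples, so they were not taken to do so. Deviations of same-numbered libraries from their group means had correlations of 0.157, -0.0507 and 0.323. With 3 libraries per group these cannot settle whether samples were paired. Genes named are the 12 protein-coding genes per direction with the smallest p, up to 4 per list with the smallest p, 7 stress genes and those in which PBA3 stood furthest apart; Krt18, Aqp3, Kap, Mt1, Umod and other list members beyond these were added after their values were seen. Some genes that the rule names are not reported here. The comparison, its gene lists and the rule were chosen with earlier results of these data known. Alternatives were other scalings, filters, pseudocounts (0.1 and 4), fits and libraries left out. Figures were drawn with Python 3.11.15 and matplotlib 3.10.9.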

Additional observations from a re-analysis of the deposited data

How the results depend on the processing

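Genes passing the threshold numbered 0 in each of the 19 alternatives, leave-one-out fits included (0 to 0). The number at an unadjusted limma p under 0.05 ranged from 103 (without GC3) to 1710 (library weights), against 244 in the fit as reported, and was 722 without PBA2, 625 with the mitochondrial share as a covariate, 118 with scaling by total reads and 170 with all 9 libraries in 1 fit. With the replicate number as a block, the pairing of same-numbered libraries gave 0 genes past the threshold and 219 at an unadjusted p under 0.05. The 24 genes named by smallest p kept their direction in all 456 alternative values. They were chosen by p in these same data and all had groups that do not overlap. Most alternatives, such as leaving out a library, therefore could not have reversed them. List medians moved by more than the SD of their values in PBA1, PBA2 and PBA3 in 34 alternative values and by less in 726. That SD is wide where PBA3 stands apart, so a move counted as less is not a sign of stability. The proximal tubule median, for example, went from -0.64 to -0.04 without PBA3 and counts as less. So does the matrix median, which changed sign from 0.74 to -0.19. For urothelium genes the median ranged from 1.10 to 2.75, and from 1.47 to 2.26 with 1 library left out. Scaling by total reads moved the median of all genes from -0.03 to -0.09, and to 0.04 when only reads from nuclear genes set the scale. The spread between libraries, and the 2887586 reads of PBA3 outside the mitochondrial genome, limit what could be seen for low genes.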
